A study of Mus musculus with 20 samples.

Results

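miR-210 is a microRNA made from a single hairpin, and its mature arms miR-210-3p and miR-210-5p were followed here in every small RNA library of the study. They were taken by name from the count tables of both lines, so they are 2 of the 1063 miRNAs that the tables share, and both were among the 813 miRNAs tested. Mouse embryonic stem cells kept in 2i, an inhibitor medium that holds them in the naive state, were moved to N2B27 medium with Activin A and Fgf2 on fibronectin, which turns them into primed epiblast stem cells. The groups were the PGK line (female) at days 0, 4, 10, 19 to 23 and 27 to 30 after the switch, and the E14 line (male) at the same 5 stages, with 2 libraries in each of the 10 groups. Each sex is 1 line, so line and sex cannot be told apart. The 2 libraries of a group came from separate differentiation experiments, called replicates 2 and 3 after their labels, and libraries of an experiment follow the same culture over time. The late libraries were taken at days 23 and 21 in PGK cells and days 21 and 19 in E14 cells for the first late stage, and at days 29 and 29 in PGK cells and days 27 and 30 in E14 cells for the second. No genotype beyond the line, and no oxygen level of the cultures, is given in the sources used here.

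miR-210 is known above all as a target of the hypoxia-inducible transcription factors: when oxygen is low, Hif1a escapes degradation and switches the miR-210 gene on. Its 3p arm is the guide strand on which most work has been done, and it represses, among other mRNAs, the scaffold proteins Iscu that build iron-sulfur clusters for the mitochondrial respiratory chain. Primed pluripotent cells are known to lean more on glycolysis than naive cells, and Hif1a has been linked to that shift in the mouse.

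The sequences are shown because the whole account turns on how the 2 arms of the same hairpin differ. They are from RefSeq on GRCm38.p6, and capitals mark the seed (bases 2 to 8), the stretch that pairs with targets.
mmu-miR-210-5p: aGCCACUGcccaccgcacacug
mmu-miR-210-3p: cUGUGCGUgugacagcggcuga
Both arms are 22 bases long, and G or C makes up 68.2% of the 5p arm and 63.6% of the 3p arm. The seeds differ, and neither was shared with any other of the 1679 mature mouse miRNA names in the RefSeq table. The hairpin follows, with the 5p arm and then the 3p arm in capitals.
mmu-mir-210 hairpin: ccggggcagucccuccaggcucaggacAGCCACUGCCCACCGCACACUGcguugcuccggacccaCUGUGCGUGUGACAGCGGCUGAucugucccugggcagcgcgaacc
The hairpin is 110 bases long and lies on the minus strand of chromosome 7 at chr7:141221384-141221493 (GRCm38.p6), with the 5p arm at chr7:141221445-141221466 and the 3p arm at chr7:141221407-141221428. In the GENCODE M21 annotation it lies between genes, in no exon, intron or UTR of another gene. Rassf7, on the plus strand, ends 2725 bases away, and Phrf1, also on the plus strand, starts 7290 bases away. No other mature miRNA lay within 10000 bases of it.

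The 20 libraries held 7112398 to 18031067 counts of miRNAs. In each, 864 to 923 miRNAs had a count, out of all those listed for its line. The levels below are in CPM, a count relative to its library total, after TMM scaling with a factor per library that evens out shifts in composition. That factor was 0.810 to 0.889 at day 0 and 1.05 to 1.43 in the late libraries (days 19 to 30). The naive markers miR-294-3p and miR-295-3p summed to 31281 to 74460 CPM in late libraries and 155263 to 214025 CPM at day 0. The primed markers of the miR-302 cluster (miR-302a, b and d and miR-367) summed to 10584 to 31645 CPM in late libraries and 157 to 546 CPM at day 0. In both lines the day 0 library of replicate 3 carries a cell-type label of differentiating cells, while its title and day label say day 0. It is grouped by day and is part of that day 0 range. Its primed markers summed to 179 CPM in PGK cells and 546 CPM in E14 cells. Those of the day 0 library of replicate 2 were lower, at 157 CPM in PGK cells and 260 CPM in E14 cells. All these sums lay below the lowest late sum of 10584 CPM.

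The 3p arm was the major product in all 20 libraries, and its group mean at days 27 to 30 was close to that of day 0 in both lines. In E14 cells that mean joined opposite changes within the experiments, a log2 change against day 0 of -1.48 in replicate 2 and 1.09 in replicate 3. In PGK cells the group means ran 547 ± 172, 273 ± 79.1, 464 ± 395, 585 ± 141 and 516 ± 198 CPM from day 0 to days 27 to 30 (SD, n = 2 each). In E14 cells they ran 1090 ± 395, 878 ± 161, 2839 ± 2164, 1087 ± 56.7 and 1106 ± 870 CPM. Every E14 mean was above every PGK mean. Single raw counts were 1923 to 61424, so counting error was small beside the spread between replicates, which reached 4.02-fold in PGK cells at day 10.

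By library, with replicate 2 first and replicate 3 after it, PGK cells had 669 and 425 CPM of miR-210-3p at day 0, 329 and 217 at day 4, 744 and 185 at day 10, 685 and 485 at days 19 to 23, then 656 and 375 at days 27 to 30. In each pair replicate 2 was the higher one, and only at day 4 did both libraries lie below both day 0 libraries. E14 cells had 1369 and 810 CPM at day 0, 764 and 992 at day 4, 4369 and 1309 at day 10, 1128 and 1047 at days 19 to 23, then 490 and 1721 at days 27 to 30. The day 10 library of replicate 2 was the highest of all 20, and the spread at days 27 to 30 took in both day 0 values. Among the 1063 shared miRNAs the 3p arm ranked 51st to 210th by count.

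**Figure D1:**
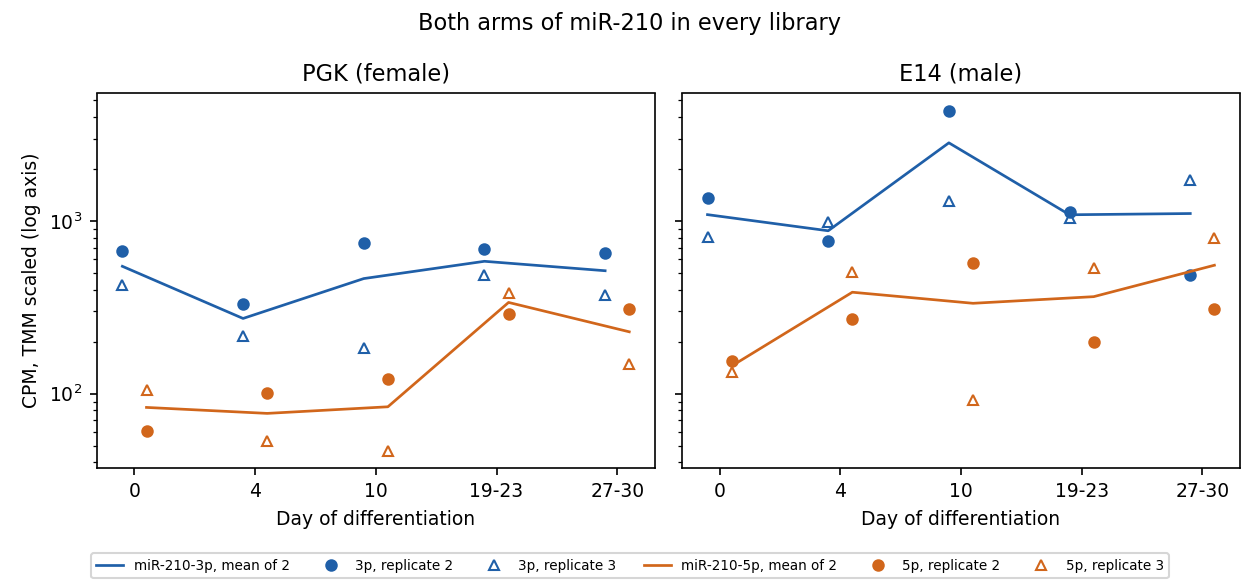
TMM-scaled CPM (log axis) of miR-210-3p (blue) and miR-210-5p (orange) by day of differentiation, PGK left and E14 right; circles are replicate 2, triangles replicate 3, lines join the group means. The 3p arm lies above the 5p arm of the same library throughout, and the late 5p libraries lie above the day 0 ones of the same line while the 3p libraries do not.

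Ordered by mean, miR-210-3p ran from E14 at day 10 through E14 at days 27 to 30, 0, 19 to 23 and 4 to PGK at days 19 to 23, 0, 27 to 30, 10 and 4. The libraries of neighbours in that order overlapped except at 2 places. E14 at days 19 to 23 (1047 to 1128 CPM) lay above E14 at day 4 (764 to 992 CPM), and E14 at day 4 lay above PGK at days 19 to 23 (485 to 685 CPM).

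The 5p arm was less abundant and followed another course. It was low at day 0 in both lines and higher in all 8 late libraries than in the day 0 libraries of the same line. At single late stages 33.9% to 40.6% of all miRNAs lay above day 0 in this way. The smallest late rises of the 5p arm within an experiment were log2 0.35 (E14, replicate 2, day 21) and 0.49 (PGK, replicate 3, day 29). In PGK cells its means ran 83.3 ± 31.6, 76.9 ± 33.8, 84.0 ± 52.7, 338 ± 66.4 and 228 ± 113 CPM from day 0 to days 27 to 30. In E14 cells they ran 145 ± 15.5, 387 ± 167, 334 ± 341, 365 ± 236 and 555 ± 349 CPM (SD, n = 2 each). The PGK mean thus stayed near its day 0 level up to day 10, while the E14 mean was already higher at day 4. Ordered by mean, the top 7 groups were the 4 late groups, E14 at days 4 and 10 and E14 at day 0, and the bottom 3 were PGK at days 10, 0 and 4. The single gap in that order without overlap was between E14 at day 0 (134 to 156 CPM) and PGK at day 10 (46.7 to 121 CPM).

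By library, again with replicate 2 first, PGK cells had 60.9 and 106 CPM of miR-210-5p at day 0, 101 and 53.0 at day 4, 121 and 46.7 at day 10, 291 and 385 at days 19 to 23, then 308 and 148 at days 27 to 30. All 4 late libraries lay above both day 0 libraries, and those of days 4 and 10 overlapped day 0. E14 cells had 156 and 134 CPM at day 0, 269 and 505 at day 4, 575 and 92.5 at day 10, 198 and 531 at days 19 to 23, then 308 and 802 at days 27 to 30. Day 10 was the one later stage that overlapped day 0, since its libraries differed 6.22-fold. The 5p counts were 470 to 10754, far above the limit of 3 counts that a count of 0 allows, and the arm ranked 104th to 317th.

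Tested one stage at a time against day 0, neither arm passed an adjusted p of 0.05 in either line, in 16 tests with edgeR's quasi-likelihood F test and Benjamini-Hochberg adjustment over all 813 miRNAs. In the same comparisons 39.1%, 40.1%, 40.5% and 43.5% of all miRNAs passed in PGK cells at days 4, 10, 19 to 23 and 27 to 30, and 43.4%, 33.7%, 34.3% and 40.7% in E14 cells. At an unadjusted p under 0.05 there were 2 of the 16, both of the 5p arm, and DESeq2 called the same 2. These 8 comparisons share the day 0 libraries of their line.

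For miR-210-5p the larger late change in each line had a log2 change (later minus day 0, ± SE) of 2.02 ± 0.79 in PGK cells at days 19 to 23 (edgeR adjusted p = 0.053) and of 1.94 ± 0.79 in E14 cells at days 27 to 30 (edgeR adjusted p = 0.0618). With DESeq2 these were 1.95 (adjusted p = 0.0262) and 2.02 (adjusted p = 0.0212), and 43.9% and 44.5% of all miRNAs were called. The 95% interval in PGK cells was 0.34 to 3.71, and the change was 1.72 to 2.36 with each library left out in turn. In E14 cells the change was 1.07 without replicate 3 of days 27 to 30 and 2.44 without replicate 2. The other 5p changes were 1.45 ± 0.78 in PGK cells at days 27 to 30, and 1.42 ± 0.78, 1.21 ± 0.77 and 1.33 ± 0.77 in E14 cells at days 4, 10 and 19 to 23, with edgeR adjusted p of 0.142 to 0.244. The E14 change at day 10 turned to -0.61 without replicate 2 of that stage. At days 4 and 10 in PGK cells they were -0.11 ± 0.76 and 0.01 ± 0.76. Both 5p libraries lay above both day 0 libraries in 5 of the 8 comparisons, the 2 late stages of PGK and days 4, 19 to 23 and 27 to 30 of E14; by that rule 39%, 40.6%, 36%, 33.9% and 35.9% of all miRNAs did so too.

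For miR-210-3p the changes against day 0 at the late stages were 0.10 ± 0.68 and -0.09 ± 0.68 in PGK cells, and -0.00 ± 0.68 and 0.02 ± 0.68 in E14 cells. The E14 change at days 27 to 30 was -1.17 without replicate 3 of that stage (edgeR adjusted p = 0.304). The 95% intervals of about 1.5 on each side leave room for changes of more than 2-fold at a single stage. The PGK change at day 4 was -1.0 ± 0.69 (edgeR adjusted p = 0.26), where both libraries lay below day 0, as did 30.6% of all miRNAs. The E14 change at day 10 was 1.38 ± 0.69 (edgeR adjusted p = 0.136).

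**Figure D2:**
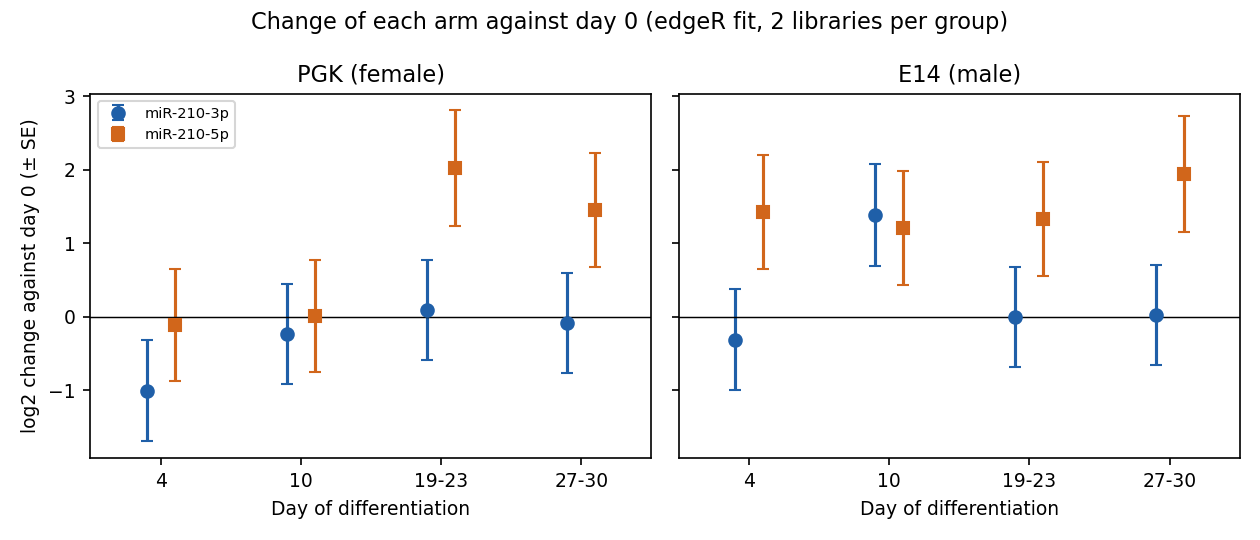
log2 change against day 0 of each arm by stage, PGK left and E14 right, as fitted by edgeR, with bars of 1 SE. The late 5p changes lie between 1.33 and 2.02, and the late 3p changes lie within 0.1 of 0.

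Averaged over both late stages of both lines, a contrast added after the data were seen, miR-210-5p rose 3.22-fold over day 0. Its log2 change was 1.69 ± 0.51 (95% interval 0.61 to 2.77, edgeR adjusted p = 0.00973). In that contrast 62.5% of all miRNAs were called, 32.5% as higher. The contrast treated libraries of the same culture at different stages as independent, so its p-values describe these libraries. With each library left out in turn the change stayed between 1.36 and 1.81, with adjusted p of 0.00302 to 0.0405. Within an experiment the 5p arm was higher at the late stage than at day 0 in 8 of 8 pairs. Pairs of the same line and experiment share their day 0 library, and the share of all miRNAs with such counts was not computed. The 3p arm changed by 0.01 ± 0.42 (95% interval -0.88 to 0.90, adjusted p = 0.995) and was higher in 4 of the 8 pairs. With plain library totals in place of TMM scaling, which moved the median of all miRNAs up by 0.565 in this contrast, the 5p change was 2.26 and the 3p change was 0.59, and the 3p arm was still not called. In all 8 pairs the 5p arm moved up more than the 3p arm.

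Because both arms come out of the same precursor, their ratio within a library does not depend on scaling. The 5p arm made up 29.8% and 44.3% of the summed arm counts in PGK cells at days 19 to 23 and 32.0% and 28.3% at days 27 to 30, against 8.35% and 19.9% at day 0. In E14 cells it made up 14.9% and 33.7% at days 19 to 23 and 38.6% and 31.8% at days 27 to 30, against 10.2% and 14.2% at day 0. All 8 late shares were above the day 0 shares of their own line, and in E14 cells the nearest pair was 14.9% and 14.2%. By the same rule 24 and 23 of the 78 hairpins whose arms both averaged at least 50 CPM, miR-210 among them, had a higher 5p to 3p ratio in both libraries at the late stages of PGK cells, and 15 and 18 of the 78 at those of E14 cells. The exact binomial 95% intervals of the miR-210-5p shares of 14.9% and 14.2% in E14 cells were 14.3% to 15.6% and 13.6% to 14.8%. Such intervals cover counting error only.

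At the middle stages the shares were 23.5% and 19.6% at day 4 and 14% and 20.2% at day 10 in PGK cells. In E14 cells they were 26% and 33.7% at day 4, but 11.6% and 6.60% at day 10, and 6.60% was the lowest share of all 20 libraries. The shares overlapped those of day 0 at days 4 and 10 in PGK cells and at day 10 in E14 cells, the group with the highest 3p mean.

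**Figure D3:**
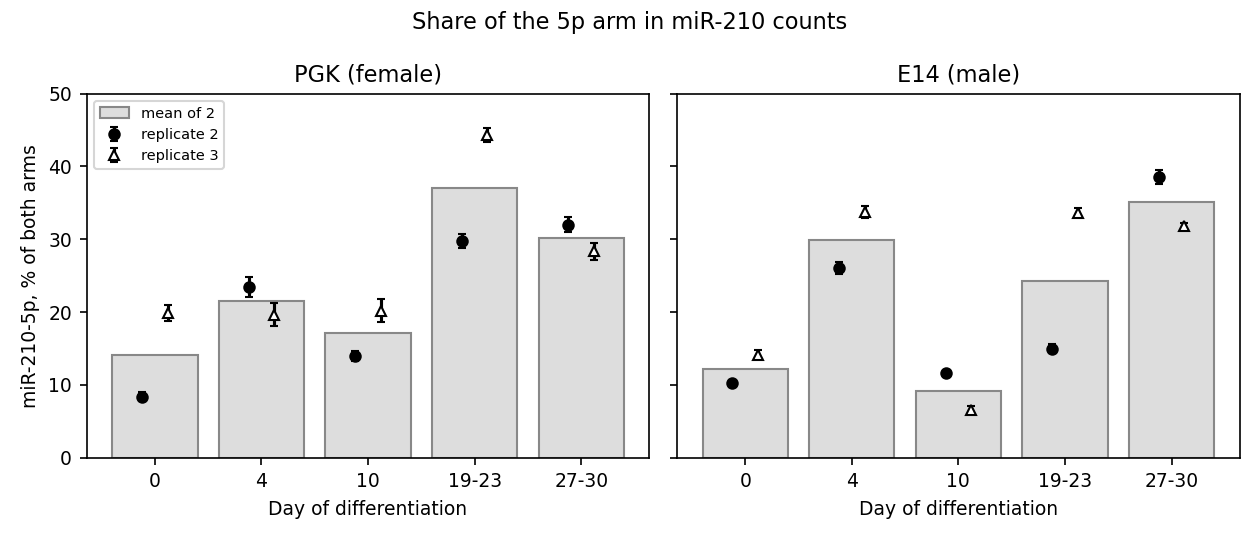
Share of miR-210-5p in the summed counts of both arms (percent) by day, PGK left and E14 right, 1 point per library. The late libraries lie at 28.3% to 44.3% in PGK cells and 14.9% to 38.6% in E14 cells, and the day 10 libraries of E14 lie at 6.60% and 11.6%.

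The log2 ratio of 3p to 5p counts averaged 1.68 ± 0.92 over the 16 later libraries and 2.80 ± 0.63 over the 4 day 0 libraries (SD). The difference of -1.12 had an exact two-sided permutation p of 0.039, with labels exchanged within each line in all 2025 ways. Libraries of an experiment are not independent over time, so that p describes these libraries. It rested on single day 0 libraries: without PGK day 0 replicate 2 the difference was -0.91 (exact permutation p = 0.151), and without E14 day 0 replicate 2 it was -1.01 (exact permutation p = 0.0864). Within replicate 2 alone it was -1.51 (exact permutation p = 0.04, the smallest that its 25 assignments allow), and within replicate 3 alone -0.73 (exact permutation p = 0.36). Taking only days 19 to 30 as later, a choice made after seeing the data, gave -1.64 (exact permutation p = 0.00444, the smallest that 225 assignments allow), and only days 4 and 10 gave -0.60 (exact permutation p = 0.289).

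Other hairpins give a scale for this shift. For the same 78 hairpins the change in the 5p to 3p ratio was computed in the same way, as a description chosen after the data were seen and with no test. Over both late stages of both lines the ratio of miR-210 went up by 1.64 (log2), by 1.73 in PGK cells and 1.55 in E14 cells, the largest rise of the 78. The next were miR-301a (1.39), miR-302c (1.20), miR-3071 (1.10) and miR-130b (1.05), and 2 hairpins had a larger shift toward the 3p arm. By stage, 0 hairpins had a higher change than miR-210 at either late stage in PGK cells, and 4 and 1 had at the late stages in E14 cells. At day 10 in E14 cells its change was -0.51, and 62 hairpins were higher.

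**Figure D4:**
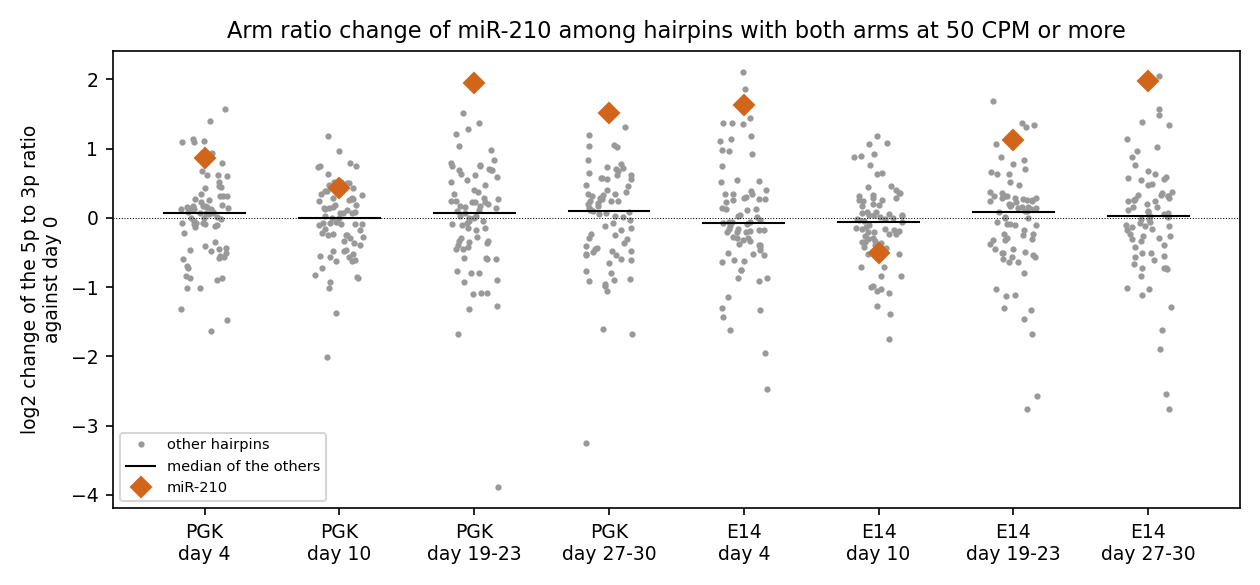
log2 change of the 5p to 3p ratio against day 0 for 78 hairpins (grey points; orange diamond miR-210; black line the median of the other hairpins) in each line and stage. miR-210 is at the top at both late stages of PGK (1.95 and 1.52) and below the median at day 10 of E14 (-0.51).

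Between neighbouring stages after day 4 neither arm passed the edgeR test in either line (0 of 12 tests, 2 at an unadjusted p under 0.05, and 1 by DESeq2). In these steps 6.52%, 0.369% and 0% of all miRNAs passed in PGK cells and 8.12%, 0.246% and 0% in E14 cells. For the steps with 0 calls, from days 19 to 23 to days 27 to 30, edgeR had 22 miRNAs in PGK cells and 37 in E14 cells at an unadjusted p under 0.05, and DESeq2 called 0 and 3. The 5p arm in PGK cells differed by 2.01 ± 0.79 between days 19 to 23 and day 10 (edgeR adjusted p = 0.676). The 3p arm in E14 cells differed by 1.69 ± 0.70 between day 10 and day 4 (edgeR adjusted p = 0.142; DESeq2 1.96, adjusted p = 0.039, with 13.4% of all miRNAs called) and by -1.38 ± 0.69 between days 19 to 23 and day 10 (edgeR adjusted p = 0.462).

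On average over the stages, PGK cells held less miR-210 than E14 cells in these libraries. Averaged over the 5 stages, a contrast added after the data were seen, miR-210-3p was lower in PGK cells, with a log2 difference of -1.46 ± 0.31 (PGK minus E14, 95% interval -2.12 to -0.80, edgeR adjusted p = 0.00781), a level of 0.364 times that of E14 cells. miR-210-5p was lower too, with a log2 difference of -1.30 ± 0.35 (95% interval -2.04 to -0.57, edgeR adjusted p = 0.0208). This contrast treated libraries of the same culture at different stages as independent, so both p-values describe these libraries. In that contrast 18.5% of all miRNAs were called in either direction and 4.55% were called lower in PGK cells. Within the same stage and experiment the 3p arm was lower in PGK cells in 9 of 10 pairs. The exception was replicate 2 at days 27 to 30. The 5p arm was lower in 8 of 10. Pairs of different stages come from the same cultures, and the share of all miRNAs with such counts was not computed. The 3p call held without any single library (adjusted p of 0.000943 to 0.0187), whereas the 5p call was lost without E14 replicate 3 of days 27 to 30 (-1.13, edgeR adjusted p = 0.0509).

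Stage by stage, the PGK minus E14 difference of miR-210-3p was -0.99 ± 0.69, -1.69 ± 0.70, -2.61 ± 0.72, -0.90 ± 0.69 and -1.10 ± 0.69 from day 0 to days 27 to 30. The last of these turned to 0.09 without E14 replicate 3 of days 27 to 30. That of miR-210-5p was -0.80 ± 0.77, -2.33 ± 0.80, -1.99 ± 0.79, -0.11 ± 0.76 and -1.28 ± 0.77. None of these 10 passed the edgeR test, 4 had an unadjusted p under 0.05 and DESeq2 called 2. Among all miRNAs 8.73%, 5.04%, 0%, 0% and 0% passed at the 5 stages. At the last 3 stages edgeR had 97, 60 and 63 miRNAs at an unadjusted p under 0.05, and DESeq2 called 29, 2 and 4. All PGK libraries lay below all E14 libraries for the 3p arm at every stage but the last, and for the 5p arm at days 0 and 4; by that rule 16.7%, 18.1%, 13% and 13.4% of all miRNAs did so from day 0 to days 19 to 23.

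With the experiment as a block within each stage, 3 of the 10 differences were called, where 14.4%, 13.4%, 2.83%, 0.246% and 0.123% of all miRNAs were called from day 0 to days 27 to 30 in that fit. The 3p arm was lower in PGK cells at day 4 (blocked log2 difference -1.71, edgeR adjusted p = 0.0464, against 0.18 without the block) and at day 10 (-2.69, adjusted p = 0.0172, against 0.122 without it). The 5p arm was lower at day 4 (-2.33, adjusted p = 0.041, against 0.105 without it). DESeq2 without a block called the 5p arm at day 4 (-2.37, adjusted p = 0.0237) and the 3p arm at day 10 (-2.71, adjusted p = 0.00431), with 9.59% and 3.57% of all miRNAs called at those stages.

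**Figure D5:**
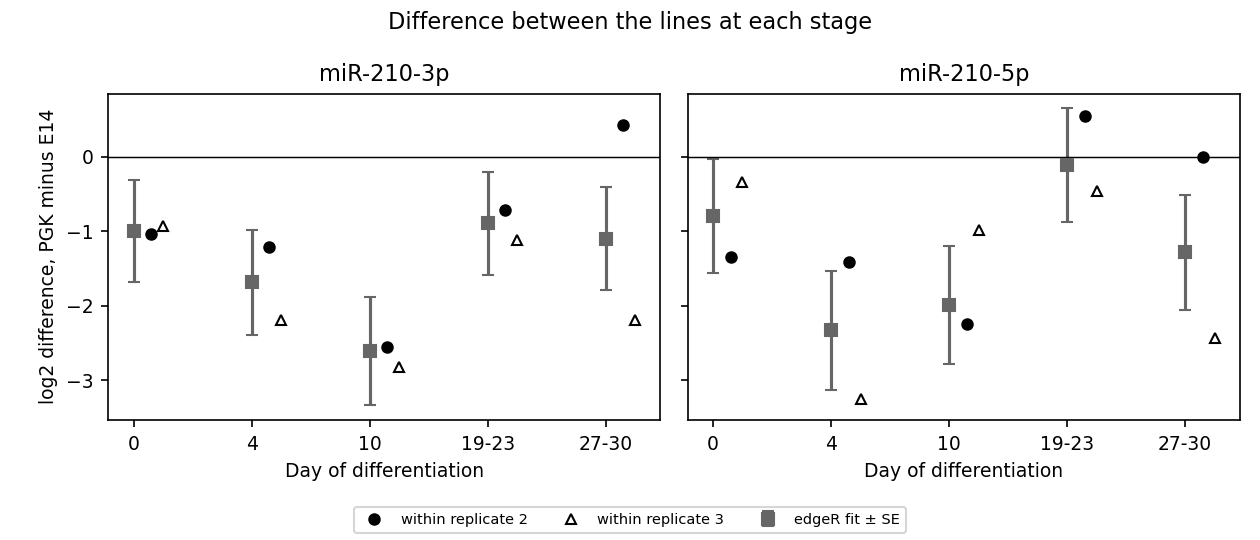
log2 difference, PGK minus E14, of each arm by stage; squares with bars of 1 SE are the edgeR fit, circles and triangles the difference within replicates 2 and 3. For miR-210-3p, 9 of the 10 within-experiment points lie below 0.

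Whether the lines changed differently over time was tested as an interaction, and neither arm passed at any stage (0 of 8 by edgeR, 0 of 8 at an unadjusted p under 0.05 and 0 by DESeq2). Of all miRNAs 0%, 0%, 0% and 0.369% passed at days 4, 10, 19 to 23 and 27 to 30. At the first 3 of these stages edgeR had 118, 98 and 94 miRNAs at an unadjusted p under 0.05, and DESeq2 called 17, 19 and 37. The difference between the lines was -1.62 ± 0.97 for the 3p arm at day 10 (edgeR adjusted p = 0.528) and -1.53 ± 1.08 for the 5p arm at day 4 (edgeR adjusted p = 0.527).

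Markers of several other cell types also differed between the late libraries and day 0. With both lines pooled, the ranges of the neural and endothelial ones overlapped. The 4 mesenchyme markers (miR-143-3p, miR-145a-5p, miR-199a-3p and miR-214-3p) summed to 917 to 3043 CPM in late libraries and 3220 to 8814 CPM at day 0, where miR-214-3p was at 0 in all 4 libraries. The 2 endoderm markers summed to 404 to 628 CPM in late libraries and 1029 to 3338 CPM at day 0. The 2 neural ones summed to 171 to 1115 CPM in late libraries and 163 to 311 CPM at day 0. By line, the neural sums in E14 cells were 210 to 311 CPM at day 0. They were 392 to 414 and 476 to 1115 CPM at the late stages, above day 0 at both. In PGK cells they were 163 to 255 CPM at day 0. At the late stages they were 171 to 209 CPM, within the day 0 range, and then 285 to 371 CPM, above it. The 3 blood markers reached at most 4.56 CPM in late libraries and 86.1 CPM at day 0. The 2 muscle markers reached at most 20.7 CPM in late libraries and 7.29 CPM at day 0. The endothelial miR-126-3p was at 33.1 to 48.2 CPM at day 0 in PGK cells, and at 65.3 to 69.5 and 67.2 to 72.5 CPM at the late stages. In E14 cells it was at 99.6 to 115 CPM at day 0, and at 89.2 to 93.0 and 79.2 to 95.1 CPM at the late stages. The part of such cells in the miR-210 levels was not tested, and in bulk libraries fewer cells of a type and less RNA per cell cannot be told apart.

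The miRNAs whose pattern was most like that of miR-210-3p were found by Pearson's r of log2 CPM over the 10 group means, among 330 miRNAs with a mean of at least 50 CPM. They were miR-15b-5p (r = 0.78), miR-92b-3p (0.68), miR-330-5p (0.68), miR-218-5p (0.66) and miR-301a-3p (0.61). Of these 5, 4 were also among the top 5 by Spearman's rho and 4 by r over the 20 libraries. Within a line the likeness differed: over the 5 PGK means miR-92b-3p had r = 0.0067 and over the 5 E14 means 0.233, while miR-218-5p had 0.863 and 0.475. miR-210-5p itself had r = 0.583 with its sister arm over the 10 group means. The points share their lines, experiments and scaling, and the values are a description.

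Other miRNAs linked to oxygen moved in both directions. Of 13 miRNAs reported as raised by low oxygen in human cancer cell lines, all were tested; 4 rose, 5 fell and 4 were not called in PGK cells at days 27 to 30, where 24.1% of all miRNAs rose and 19.4% fell. In E14 cells at that stage 3 rose, 6 fell and 4 were not called, where 19.6% of all miRNAs rose and 21.2% fell. Their median log2 change was -0.34 in PGK cells and -0.96 in E14 cells, against 0.01 and 0.05 over all miRNAs. At days 4, 10 and 19 to 23 in turn, 3, 4 and 3 of them rose and 6, 5 and 5 fell in PGK cells, where 24.5%, 21.3% and 21.2% of all miRNAs rose and 14.6%, 18.8% and 19.3% fell. In E14 cells 1, 3 and 3 rose and 8, 5 and 5 fell, where 25.1%, 16.7% and 15.9% of all miRNAs rose and 18.3%, 17% and 18.5% fell.

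The most abundant 3 of that list went in different directions. miR-21a-5p, a miRNA widely raised in tumours, rose at every stage in both lines, by 2.51 ± 0.54 in PGK cells (edgeR adjusted p = 0.00175) and 1.66 ± 0.53 in E14 cells (edgeR adjusted p = 0.0219) at days 27 to 30. miR-26a-5p fell in both lines, with log2 changes of -1.73 ± 0.37 in PGK cells and -1.91 ± 0.37 in E14 cells, and miR-27b-3p fell likewise, with changes of -1.25 ± 0.30 in PGK cells and -1.90 ± 0.30 in E14 cells (edgeR adjusted p of 0.000244 to 0.00328). Of the others, miR-181a-5p and miR-181b-5p rose in both lines at days 27 to 30, while miR-181c-5p, miR-107-3p and miR-23b-3p fell in both. In E14 cells at day 4 miR-181a-5p and miR-181b-5p were not called (edgeR adjusted p = 0.344 and 0.15).

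Of 7 miRNAs reported to target the Hif1a mRNA in mammalian cells, all were tested, and 3 rose and 0 fell in PGK cells at days 27 to 30, while in E14 cells 0 rose and 0 fell; of all miRNAs 24.1% rose and 19.4% fell in PGK cells, and 19.6% rose and 21.2% fell in E14 cells. The median log2 change was 1.22 in PGK cells and 0.42 in E14 cells, against 0.01 and 0.05 over all miRNAs. At days 4, 10 and 19 to 23 in turn, 2, 1 and 2 of the 7 rose and 0 fell in PGK cells. In E14 cells 0 rose, while 2, 1 and 0 fell. Of all miRNAs 24.5%, 21.3% and 21.2% rose and 14.6%, 18.8% and 19.3% fell in PGK cells at those stages. In E14 cells 25.1%, 16.7% and 15.9% of all miRNAs rose and 18.3%, 17% and 18.5% fell. By abundance the first 3 were miR-17-5p, miR-20a-5p and miR-18a-5p, which are encoded in the same cluster. miR-18a-5p rose at all 4 later stages in PGK cells, by 1.33 ± 0.40 at days 27 to 30 (edgeR adjusted p = 0.0144), and changed by 0.74 ± 0.40 in E14 cells (edgeR adjusted p = 0.149). miR-17-5p and miR-20a-5p were called at no stage in either line, and in PGK cells at days 27 to 30 their changes were 0.59 ± 0.37 and 0.57 ± 0.46.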

How the data were processed

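The processed tables were used as deposited. The authors' raw tables hold counts per miRNA and library from Illumina small RNA libraries of Trizol-extracted RNA, per the labels. CASAVA 1.8.2 and DESeq2, and the builds mm10 and GRCm38, are listed in the submitters' processing notes. Which aligner and miRNA annotation were used, and what was done with reads of several matches, is not given in the sources used here. In the authors' normalized table the deposited signal is, per value, the authors' count over a library's size factor (largest relative deviation 5.5e-10), and the deposited log2 values are the authors' variance-stabilized ones; both served for checks only.

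Samples were grouped by line and day into 10 groups of 2. edgeR 4.0.16 (R 4.3.3, limma 3.58.1) fitted quasi-likelihood F tests to all 20 libraries with TMM scaling (factors 0.551 to 1.43) and filterByExpr, which kept 813 of 1063 shared miRNAs and 10 residual degrees of freedom. Each contrast had its own Benjamini-Hochberg adjustment, with a threshold of 0.05. The male table held 1091 miRNAs and the female one 1109. A count of 0 allows up to 3 counts, 0.166 to 0.422 CPM per library. The arm ratio of all hairpins used a pseudocount of 0.5. The code was tested on simulated counts with known changes in PGK cells at days 27 to 30. Against day 0 it called 2 of 50 rises and 4 of 50 falls of 2-fold. Of 8-fold changes it called 41 of 50 rises and 38 of 50 falls, and of 613 unchanged miRNAs it called 3.

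The experiment names pair samples across lines: deviations of log2 CPM from the group means correlated at 0.130 to 0.554 between lines in all 5 stages. Replicates of a group differed by more than counting error. Alternatives were DESeq2 1.42.0, RLE and plain-total scaling, filters set off or raised to a mean of 10 CPM, a replicate block (over all stages or within each), each line alone and leaving out each library. The named miRNAs were both arms, the 5 most like the 3p arm by Pearson's r, and the 3 most abundant of each oxygen-related list; 5 further members of the first list were named after their values were seen. The members and lists were chosen with earlier results of these data known.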

Additional observations from a re-analysis of the deposited data

How the results depend on the processing

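Of 1359 recomputed values for 51 results, 1329 kept their call and 30 changed it. In the main fit 0 of the 46 tests against day 0, between stages, between lines and of interactions were called. For these a kept call means that the result was still not called. RLE scaling, no filter and the replicate block over all stages changed no call, and no called value changed its sign. With plain library totals the 5p changes in PGK cells at days 19 to 23 (2.54) and in E14 cells at days 19 to 23 (2.07) and 27 to 30 (2.60), and the 5p line difference at day 4 (-2.80), passed 0.05; that scaling moved the median of all miRNAs by 0.565 in the late averaged contrast. With a mean of at least 10 CPM the 5p change in PGK cells at days 19 to 23 (2.15) passed. That in E14 cells at days 27 to 30 (2.01) passed too. At days 27 to 30 that filter called 271 of 524 miRNAs in PGK cells and 237 of 524 in E14 cells. Both 5p changes also passed with DESeq2 (1.95 and 2.02), where 43.9% and 44.5% of all miRNAs were called. DESeq2 also called the 3p arm in E14 cells between days 10 and 4 (1.96), with 13.4% of all miRNAs called. It called the line differences of the 5p arm at day 4 (-2.37) and the 3p arm at day 10 (-2.71). There 9.59% and 3.57% of all miRNAs were called. With each line fitted alone the 5p change in PGK cells at days 19 to 23 was 1.95 and passed. In that fit 342 of 780 miRNAs were called in PGK cells at days 27 to 30. With the replicate block within stages the line differences of both arms at day 4 (3p -1.71, 5p -2.33) passed. So did that of the 3p arm at day 10 (-2.69). In that fit 13.4% and 2.83% of all miRNAs were called at days 4 and 10. Some calls also changed with single libraries left out, among them that of the 5p change in PGK cells at days 19 to 23. There the library left out was of the E14 line, outside that comparison. The cause of these differences was not tested. Leaving out each library in turn gave 1.72 to 2.36 for the 5p change in PGK cells at days 19 to 23, 1.07 to 2.44 in E14 cells at days 27 to 30, -2.91 to -1.93 for the 5p line difference at day 4, -1.66 to -1.12 for its average over stages and -1.39 to -0.91 for the arm ratio. The arm ratio missed 0.05 within replicate 3 (-0.73), in PGK cells alone (-1.19), in E14 cells alone (-1.06) and with days 4 and 10 only (-0.60). Of 620 alternatives to log2 changes of 1 or more, 3 changed sign, and of 728 to smaller ones, 106 did. With 2 libraries a group, replicate spread and not depth limits these comparisons.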
